A study of Mus musculus with 6 samples.

Results

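Neutrophils of the murine brain surface and dura were picked out of all 6 single-cell libraries by their transcripts. A barcode counted as a neutrophil when it had at least 200 genes, at most 10% of its unique molecular identifiers (UMIs) on mitochondrial genes and under 20% on hemoglobin genes. It also had at least 20 summed UMIs of S100a8 and S100a9, at least 1 UMI of Csf3r, Cxcr2 or Retnlg, and 0 UMIs of C1qa, Cd3e and Cd79a. Of 17560 deposited barcodes 8724 passed the first set of filters, and 181 of these were neutrophils. The members were therefore chosen on measured values of these 8 genes, whose levels in neutrophils are given as a description with no test.

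The study profiled live sorted cells of adult wild-type C57BL6 mice of both sexes from 2 dissections, with several mice pooled in each library and no other treatment or allele. The 4 cortical surface libraries hold cells freed from the top of the cortex, leptomeninges included, and the 2 bone-associated libraries hold tissue taken from the inner side of the skull, dura included. The mice were not perfused, so blood cells were not washed out, and blood, marrow and tissue neutrophils cannot be told apart. Because mice were pooled, the library is the replicate and differences among the mice of a pool cannot be seen.

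Neutrophils are short-lived phagocytes made in bone marrow. Their granule proteins are made in waves as the cells mature: primary granule enzymes in dividing promyelocytes, secondary granule proteins in myelocytes and metamyelocytes, and gelatinase and surface receptors in band and segmented cells. Transcripts for the chemokine receptor Cxcr2 and for inflammatory mediators come late, so the granule genes of a cell place it along this path.

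The neutrophils were spread unevenly over the libraries. Cortical surface libraries 1 to 4 held 1, 5, 21 and 59, and bone-associated libraries 1 and 2 held 27 and 68. Their median depth was 5622 UMIs, and in the 4 libraries with at least 10 of them it was 5994, 5380, 6946 and 4930 UMIs. All library totals lay between 8408685 and 56169736 UMIs, of which hemoglobin genes took 84.6% and 71.9% in cortical surface libraries 3 and 4 and at most 0.52% in the others. The kept barcodes exclude those rich in hemoglobin, and the median hemoglobin share of a neutrophil was 0.374% and 0.270% in these 2 libraries against 0.00317% and 0.00135% in the bone-associated ones.

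The lowest S100a8 and S100a9 sums among members were 22, 24 and 27 UMIs, and the highest among barcodes that met every other condition but this were 14, 10 and 10. Of the members 9 had under 50 such UMIs. All 3 of Csf3r, Cxcr2 and Retnlg were found in 133 members, 2 of them in 33 and 1 in 15. Of 202 kept barcodes with enough S100a8 and S100a9, 6 lacked all 3 of these genes and 15 carried C1qa, Cd3e or Cd79a. A further 5 were left out for hemoglobin alone. No doublet caller was run, 35 barcode sequences occurred in more than 1 library, and 0 of them were neutrophils in more than 1 library.

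S100a8 (chr3:90668978-90670035, + strand) and S100a9 (chr3:90692632-90695721, - strand) encode the subunits of calprotectin, the main cytosolic protein of neutrophils. They averaged 120755 and 146952 counts per 1000000 UMIs (CPM) over the 4 libraries with at least 10 neutrophils, against 965 and 988 in all other kept barcodes. UMIs count the 3' ends of transcripts, so levels were not divided by gene length. Genes known from neutrophils that the rule did not use were high as well. Ly6g, the surface antigen by which mouse neutrophils are sorted, was seen in 53.0% of members and 0.222% of other barcodes, at 445 against 2.88 CPM. Mmp8, the neutrophil collagenase, stood at 1812 against 3.38 CPM, Mmp9, gelatinase B, at 1665 against 9.35, and Il1f9, an interleukin 1 family cytokine, at 179 against 0.119. By ratio to the other barcodes the leading genes were Asprv1 (1888-fold), Il1f9 (1505-fold), Retnlg (1481-fold), the predicted gene AC110211.1 (714-fold) and Mmp8 (537-fold), of 2260 genes found in at least 25% of members. Monocytes were set beside them, defined by at least 2 UMIs of Ly6c2 and 1 of Ccr2. The definition also asked for under 20 UMIs of S100a8 and S100a9 and 0 of C1qa, Cd3e and Cd79a. It therefore left out every neutrophil of the rule, and the highest S100a8 and S100a9 sum in these monocytes was 10 UMIs. The 208 monocytes averaged 42.6 CPM of Mmp8, 0.678 of Mmp9 and 0.187 of Retnlg, yet 27257 CPM of the lysozyme gene Lyz2 against 9183 in neutrophils.

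Most markers of other cells were low in neutrophils, with exceptions in single libraries. Ly6c2, a monocyte marker, was not: it averaged 985 CPM against 191 in the other barcodes and was seen in 58.0% of members. Hemoglobin genes were not low either, with Hba-a1 at 786 against 342 CPM. The list of red blood cell genes was highest in bone-associated library 1, at 5237 CPM. There 1 barcode had 18.3% of its UMIs on hemoglobin genes and another 11.0%, against a median of 0.00317%. Of 8 macrophage and microglia markers, C1qb and C1qc were at 0 in both bone-associated libraries, where the list summed to 132 and 1063 CPM. Apoe made up 1012 CPM of the second. Nkg7, a granule gene of NK cells and of promyelocytes, led the T and NK cell list there at 224 and 169 CPM. The fibroblast list was at 4673 CPM in cortical surface library 2 and led by Dcn, with all 264 of its UMIs in 1 of 5 barcodes, at 214 in bone-associated library 2, and at or under 7.23 in cortical surface libraries 1, 3 and 4 and bone-associated library 1. All 4 platelet markers summed to at most 3.15 CPM in any library, and Trac and Klrb1c, of T and NK cells, were at 0 throughout.

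The share of neutrophils among kept barcodes was 0.130%, 0.391%, 2.07% and 2.73% in cortical surface libraries 1 to 4, and 2.77% and 2.69% in the bone-associated libraries. The exact 95% binomial intervals, which like all intervals here cover counting error only, ran from 0.00329% to 0.721% and from 0.127% to 0.911% in the first pair of cortical surface libraries. In the other pair they were 1.29% to 3.15% and 2.09% to 3.51%, and in the bone-associated libraries 1.83% to 4.0% and 2.09% to 3.40%. The groups overlapped, since cortical surface library 4 lay between the bone-associated libraries. The mean was 2.73% ± 0.0541 (SD, n = 2) for bone-associated and 1.33% ± 1.27 (SD, n = 4) for cortical surface libraries, a difference of 1.40 points with p = 0.2 in an exact two-sided permutation test over libraries, which cannot go below 0.0667. Taken over barcodes with a UMI of Ptprc, the common leukocyte antigen, the shares were 0.308%, 1.10%, 3.14% and 4.37% in cortical surface libraries 1 to 4 and 5.21% and 5.38% in the bone-associated libraries. The groups then did not overlap, and the difference was 3.06 points (exact permutation p = 0.133). Within the cortical surface preparation, libraries 1 and 2 together held 6 neutrophils in 2048 kept barcodes (0.293%) and libraries 3 and 4 held 80 in 3172 (2.52%). The latter are the libraries rich in hemoglobin UMIs, and the part of blood content in this difference was not tested.

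**Figure D1:**
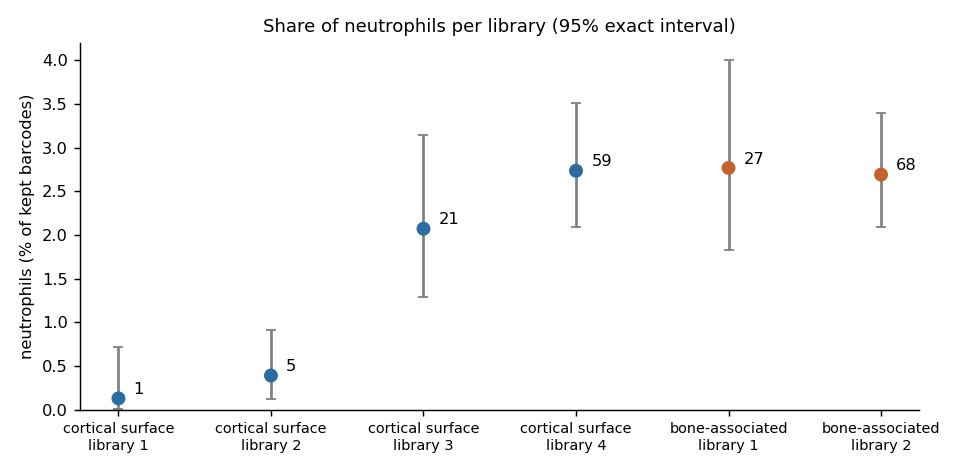
Share of neutrophils among kept barcodes (y axis, %) in each of the 6 libraries, with exact 95% binomial intervals as bars and the number of neutrophils beside each point. Cortical surface libraries 1 and 2 sit below 0.4%, and the other 4 libraries between 2.07% and 2.77%.

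The neutrophils differed widely in UMIs of precursor genes. Ltf (chr9:111019271-111042767, + strand) encodes lactoferrin, Camp (chr9:109847379-109849617, - strand) the antimicrobial peptide cathelicidin, and Ngp (chr9:110419747-110423012, + strand) neutrophilic granule protein, all of the secondary granule. Summed over the 3 genes, 93 members had 0 UMIs, 8 had 1 to 4 and 80 had at least 5 (44.2%, exact 95% interval 36.8% to 51.8%), among them 71 with at least 20 and a highest value of 4552. The highest sum below the threshold was 2 and the lowest from it upward was 5. With no wider gap there, the threshold is a convention and not a boundary between sets. All 3 genes were found together in 63 of the 80. Free RNA would place a few such UMIs in any cell: 3.98% of 553 T cells (median 6449 UMIs), 2.18% of 734 B cells (median 4376) and 5.29% of 208 monocytes (median 12652) had any, and the highest value in monocytes was 1. Among T and B cells 1 barcode each, both in cortical surface library 4, had 2486 and 2330. Unlike T and B cells, monocytes were limited to under 20 S100a8 and S100a9 UMIs, so their highest value is not comparable with these. The neutrophils with at least 5 were deeper, with a median of 11082 UMIs against 4070 for those with 0.

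Sequence upstream of these 3 genes is given because their transcripts appeared in the same cells. GENCODE starts the genes 21, 161 and 61 bases ahead of RefSeq for Ltf, Camp and Ngp, so the 250 bases before each RefSeq start were cut back to those outside the GENCODE gene, which leaves 229, 89 and 189. They are RefSeq sequences of GRCm38.p6, 5' to 3' on the gene's strand, at chr9:111019042-111019270 for Ltf, chr9:109849618-109849706 for Camp and chr9:110419558-110419746 for Ngp. Capitals mark matches on either strand to TTGCNNAA, a C/EBP motif.
Ltf: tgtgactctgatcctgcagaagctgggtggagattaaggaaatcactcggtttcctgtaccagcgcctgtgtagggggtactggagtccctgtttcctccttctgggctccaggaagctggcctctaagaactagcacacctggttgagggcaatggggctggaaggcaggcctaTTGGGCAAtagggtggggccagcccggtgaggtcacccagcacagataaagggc
Camp: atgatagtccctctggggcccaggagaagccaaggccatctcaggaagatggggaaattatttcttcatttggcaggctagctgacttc
Ngp: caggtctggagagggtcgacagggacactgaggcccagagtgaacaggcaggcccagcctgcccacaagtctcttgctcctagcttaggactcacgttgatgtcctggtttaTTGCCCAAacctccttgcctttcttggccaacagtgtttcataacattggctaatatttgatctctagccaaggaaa
Ltf had 1 match, 46 bases from the end of its window, Ngp had 1, at 69 bases, and Camp had 0. Over 27025 RefSeq promoters, 9.04% held a match in the window used for Ltf, 7.80% in that for Ngp and 3.66% in that for Camp. The PU.1 motif AGGAAGT was in 0 of the 3 windows and in 6.98%, 5.28% and 2.39% of promoters for the windows of Ltf, Ngp and Camp.

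A smaller set was marked by primary granule genes. Elane (neutrophil elastase), Prtn3 (proteinase 3), Ctsg (cathepsin G), Mpo (myeloperoxidase) and Ms4a3 summed to 0 UMIs in 162 members and to 1 to 4 in 13. The remaining 6 had 135, 281, 1112, 1302, 1915 and 3100, so no member lay between 4 and 135. Of these 6, 3 were in bone-associated library 1, 2 in bone-associated library 2 and 1 in cortical surface library 4. They were among the deepest neutrophils, with 26920 to 74102 UMIs, all above 3 times the median of their library. Only 3 of the 6 had any Ltf, Camp or Ngp: the barcode with 135 primary granule UMIs had 17 of Ltf, 1038 of Camp and 986 of Ngp, and those with 1112 and 1302 had 424 and 39 of Camp, 78 and 45 of Ngp and 0 of Ltf. Cxcr2 was at 0 in all 6 and Retnlg in 5.

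The barcode of this set in cortical surface library 4 differed from the other 5. It had 35 UMIs of S100a8 and S100a9, close to the threshold. It also had 14 UMIs of Irf8, 11 of Ccr2 and 3 of Csf1r, genes of the monocyte lineage that were at 0 in the others. The label neutrophil is uncertain for it. It is uncertain as well for the bone-associated library 2 barcode with 3100 primary granule UMIs. Among 74102 UMIs that barcode had 147 of S100a8 and S100a9, 3 of Csf3r and 0 of Cxcr2, Retnlg, Ltf, Camp and Ngp. Among kept barcodes that were not neutrophils by the rule, 21 also had at least 5 primary granule UMIs, of which 18 had too little S100a8 and S100a9 (median 1 UMI over the 21).

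Dividing cells were found in both sets. Mki67 and Top2a, made in dividing cells, summed to at least 5 UMIs in 9 neutrophils, to 1 to 4 in 11 and to 0 in 161. All 9 had 26920 to 74102 UMIs, against a median of 5622 over the members. A fixed cut of 5 UMIs favours such deep barcodes. Of the 9, 4 had at least 5 primary granule UMIs, and the other 5 had between 2648 and 4552 precursor UMIs and 17 to 51 UMIs of the cycle genes. By preparation, 2 came from cortical surface libraries (both library 4) and 7 from bone-associated libraries (3 and 4). Of the 2, the barcode with 281 primary granule UMIs is of uncertain label, and of the 7 so is that with 3100.

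**Figure D2:**
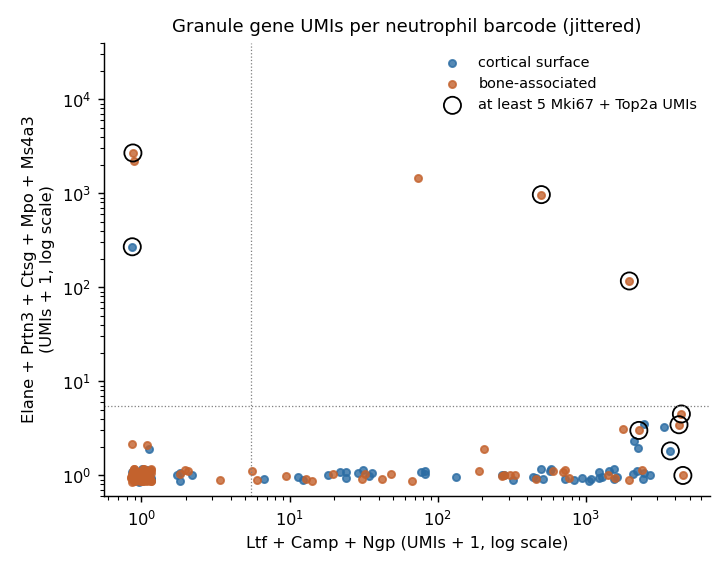
Each point is 1 of the 181 neutrophil barcodes, with summed Ltf, Camp and Ngp UMIs on the x axis and summed primary granule gene UMIs on the y axis, both plus 1 on log scales and jittered; dotted lines mark the threshold of 5 and rings mark barcodes with at least 5 Mki67 and Top2a UMIs. Of the 181, 6 lie above the horizontal line, and 3 of these are at 0 on the x axis.

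Set apart in this way, 6 neutrophils had at least 5 primary granule UMIs. Another 77 had at least 5 precursor UMIs and under 5 primary granule UMIs, and 98 had under 5 of both. Their median depth was 32990, 10930 and 4096 UMIs in that order, so the shares of barcodes with a UMI below favour the deeper sets. Elane, which was used to form the 3 sets, was seen in 100%, 1.3% and 1.02% of them. Cebpe, the transcription factor of secondary granule genes, was not used for this and was seen in 100%, 53.2% and 8.16%. Fcnb, which encodes ficolin B, was seen in 66.7%, 22.1% and 1.02%. Mmp8 was absent from the primary granule set and present in 80.5% of the precursor set and 61.2% of the rest. Mmp9 was at 0 in the primary granule set and found in 89.6% and 95.9% of the others.

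Of 20 mature neutrophil genes that the rule did not use, 19 had a higher CPM in the barcodes with under 5 UMIs of both lists than in the precursor set, and Fpr2 a lower one. By the share of barcodes with a UMI 16 were higher, although these barcodes were the shallowest, and 4 lower: Fpr1 (58.4% in the precursor set, 31.6% in the rest), Fpr2 (92.2% and 39.8%), G0s2 (90.9% and 77.6%) and Slfn4. The share over all genes is not given for this contrast, so both counts are a description. Camp and Ngp took 32802 and 32670 CPM in the precursor set, which leaves less for other genes there. S100a8 and S100a9 take more UMIs than these, with means of 120755 and 146952 CPM in the neutrophils. Their levels in each set are not given. Il1b, which encodes the cytokine interleukin 1 beta, was at 0 in the primary granule set, in 39.0% of the precursor set and in 93.9% of the rest, where it reached 6613 CPM against 429. Clec4d, a C-type lectin receptor, was at 0, 46.8% and 95.9%, and the chemokine gene Ccl6 at 0, 50.6% and 92.9%. Cxcr2, which is 1 of the genes of the rule, was found in 77.9% of the precursor set and 90.8% of the rest. Cxcr4, the marrow-retention receptor, stood at 33.2, 141 and 1064 CPM.

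**Figure D3:**
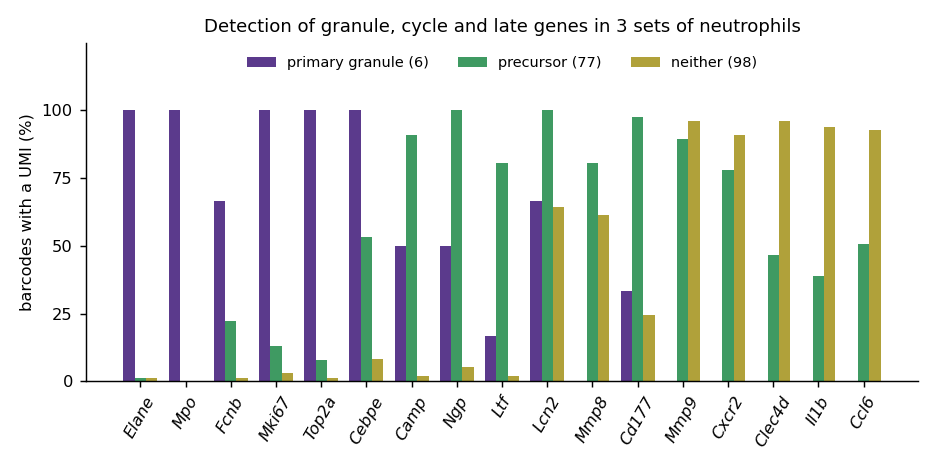
Share of barcodes with at least 1 UMI (y axis, %) of 17 genes in the 6 neutrophils with primary granule UMIs, the 77 with precursor UMIs and the 98 with neither. Elane and Mpo are near 0 outside the first set and Camp, Ngp and Ltf peak in the second, but these genes were used to form the sets. Clec4d, Il1b and Ccl6 are highest in the third.

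The same contrast held library by library. In each of the 4 libraries with at least 10 neutrophils, the summed CPM of barcodes with at least 5 precursor UMIs was set against that of barcodes with 0, as a description. Of 5193 genes, 7.03% were higher in all 4 libraries and 23.1% lower in all 4. Of 10 further secondary granule and precursor genes, all 10 were higher in every library, among them Lcn2 (lipocalin 2, 10531 against 1005 CPM), Cd177 (900 against 66.9) and the chitinase-like Chil3 (5315 against 592). Of 20 mature neutrophil genes 15 were lower in every library and 1, the formyl peptide receptor Fpr2, was higher. Of 14 cytokine and activation genes 8 were lower and 0 higher, and of 11 immediate-early and stress genes 6 and 0. Wfdc17 (2.71 against 453 CPM), Fgl2 (16.7 against 602), the growth factor gene Csf1 (4.89 against 190), Ifitm1 (44.7 against 949) and Cxcl2 (69.6 against 1354) led the lower genes. With the 6 primary granule barcodes left out, 487 genes were higher and 1032 lower in all 4 libraries in place of 365 and 1202, Fpr2 was no longer higher in every library, and the counts for the secondary granule and cytokine lists did not move.

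The share of neutrophils with precursor UMIs was compared between preparations. At least 5 of them were found in 15 of 21 (71.4%) and 28 of 59 (47.5%) neutrophils of cortical surface libraries 3 and 4, and in 12 of 27 (44.4%) and 22 of 68 (32.4%) of bone-associated libraries 1 and 2. The exact 95% intervals were 47.8% to 88.7%, 34.3% to 60.9%, 25.5% to 64.7% and 21.5% to 44.8%, and neighbours in this order overlap. The mean was 59.4% ± 17.0 (SD, n = 2) against 38.4% ± 8.55 (SD, n = 2), a difference of 21.0 points with p = 0.333 in an exact two-sided permutation test, the smallest that 2 libraries against 2 allow. Thinned to 1000 UMIs per barcode, with 1 cortical surface and 2 bone-associated barcodes too shallow, the shares were 57.1%, 39.7%, 24.0% and 25% in the same order. The order of the libraries depended on the threshold: with at least 1 precursor UMI the shares were 71.4%, 54.2%, 55.6% and 33.8%, so the groups overlapped (exact permutation p = 0.667), as they did among neutrophils with at least 50 S100a8 and S100a9 UMIs (means 62.1% and 43.7%, p = 0.667 in the same test). Cortical surface library 1 had 1 neutrophil, with 2210 precursor UMIs, and library 2 had 2 of 5 with at least 5.

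The levels of the 3 precursor genes in summed neutrophils did not pass the test between preparations. After TMM scaling Ltf was at 6842 and 8108 CPM in cortical surface libraries 3 and 4 and at 2809 and 4045 in bone-associated libraries 1 and 2, a log2 fold change of -1.12 (SE 0.37), bone-associated over cortical surface, with adjusted p = 0.0613 in edgeR's quasi-likelihood test. Camp was at 15720 and 33182 against 14919 and 13958 CPM (log2 fold change -0.76, adjusted p = 0.21), and Ngp at 18138 and 28957 against 14048 and 16254 (-0.64, adjusted p = 0.271). In all 3 genes both cortical surface libraries lay above both bone-associated ones, as in 25.5% of all genes tested. Thinned to 1000 UMIs per barcode, Ltf passed (-1.83, adjusted p = 0.000473), while Camp (-1.10) and Ngp (-0.97) did not reach a log2 fold change of 1.3. The deepest barcodes weigh on these sums: 0, 7, 5 and 13 neutrophils of these libraries lay above 3 times the library median and held 0%, 33.9%, 55.6% and 54.2% of the neutrophil UMIs. Of them 0, 6, 4 and 11 had at least 5 precursor UMIs, so leaving them out takes precursor UMIs mainly from the bone-associated libraries, and the log2 fold changes without them, -2.16, -2.96 and -1.93, which pass the test, are partly set by that choice.

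Between the preparations, edgeR's quasi-likelihood test on the summed neutrophils of these 4 libraries, 80 and 95 barcodes, called 401 of 5196 genes (7.72%) where the adjusted p was below 0.05 and the log2 fold change 1.3 or more in either direction. Of these, 302 (5.81%) were higher in bone-associated and 99 (1.91%) in cortical surface neutrophils. A gene entered the test when over 10% of the neutrophils of either group had it, which favours a call in the group where it was found: 3874 genes passed in both groups, 961 only in bone-associated and 361 only in cortical surface neutrophils. The counts by list below are therefore over genes that passed in both, of which 251 (6.48%) were called, 176 (4.54%) higher in bone-associated and 75 (1.94%) in cortical surface neutrophils. Fitted on those 3874 alone, the test made 136 calls. The call rested on few libraries: without bone-associated library 1 it made 0 calls (722 genes at an unadjusted p under 0.05), and without library 2 it made 78. Both cortical surface libraries in the test are the hemoglobin-rich ones, so preparation and blood content cannot be told apart in it.

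Cytokine and activation genes formed the list with the most calls. Of the 9 that passed the detection filter in both groups, 7 were called and all 7 were higher in bone-associated neutrophils (Cxcl2, Vegfa, Ptgs2, Il1b, Tnfaip3, Nfkbiz and Nlrp3), against 4.54% of such genes. The median log2 fold change of the 9 was 2.09 and that of all such genes -0.06. Fitted on genes that passed in both groups alone, 5 of the 9 were called, without Il1b and Nfkbiz. That fit called 105 of all 3874 genes higher in bone-associated neutrophils. Cxcl2 (chr5:90903871-90905938), a chemokine that draws neutrophils, was at 44.9 and 188 CPM in cortical surface libraries 3 and 4 and at 1185 and 719 in bone-associated libraries 1 and 2. Its log2 fold change was 2.88 (SE 0.50, adjusted p = 0.00127). Vegfa (chr17:46016993-46032369), the vascular growth factor, was at 14.97 and 14.8 against 253 and 274 CPM, a log2 fold change of 4.12 (SE 0.51, adjusted p = 4.3e-05). Ptgs2 (chr1:150100031-150108227), the inducible cyclooxygenase of prostaglandin synthesis, was at 67.4 and 78.1 against 356 and 383 CPM (log2 fold change 2.31). In all 3 the bone-associated libraries lay above both cortical surface ones, as in 31.2% of all genes tested, which a call of this kind nearly implies.

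A further 5 genes of the list, Ccl3, Ccl4, Cd274, Icam1 and Tnf, passed the filter only through bone-associated neutrophils, and their values are given as a description. Ccl3 and Ccl4 are neighbouring chemokine genes on chromosome 11. Ccl4 had 1 UMI in cortical surface libraries 3 and 4 against 158 in 23 bone-associated barcodes, of which a single barcode held 45.6%. Ccl3 was at 37.4 and 4.22 CPM in cortical surface libraries 3 and 4 and at 238 and 139 in the bone-associated libraries (log2 fold change 3.82, SE 0.65), but at 177 CPM, from 10 UMIs, in cortical surface library 2. Il1b was at 846 and 998 CPM against 1874 and 2954 (log2 fold change 1.39, adjusted p = 0.0318). Tnfaip3 and Nfkbiz, both regulators of NF-kB signalling, gave 2.30 and 1.40 and the inflammasome sensor Nlrp3 2.09, while Nfkbia (0.78) and Osm (0.36) did not pass. The checkpoint ligand Cd274, seen in 3.75% of cortical surface and 27.4% of bone-associated neutrophils, had a log2 fold change of 2.75, the adhesion molecule Icam1, in 1.25% and 11.6%, 3.95, and Tnf, which did not pass the test, 1.06.

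The 6 neutrophils of cortical surface libraries 1 and 2, which did not enter the test, come from libraries with little hemoglobin. Of these, 5 are from library 2, and 1 of the 5 carries all 264 fibroblast UMIs and 51 of Mgp. Of the 7 called cytokine genes that passed the filter in both groups, their summed CPM was at or above the lower bone-associated library in 2 (Il1b and Nfkbiz), between the groups in 3, and at or below the higher of cortical surface libraries 3 and 4 in 2 (Cxcl2 and Ptgs2). Il1b was at 1986 CPM in them and Vegfa at 39.7. With library 2 added to the test 213 genes were called in place of 401, and 5 of the 7 were kept, among them Cxcl2 (2.65), Vegfa (3.73) and Ptgs2 (2.39). Il1b (0.77, adjusted p = 0.365) and Nfkbiz (0.98, adjusted p = 0.252) were not. DESeq2 called 6 of the 7, without Nfkbiz.

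**Figure D4:**
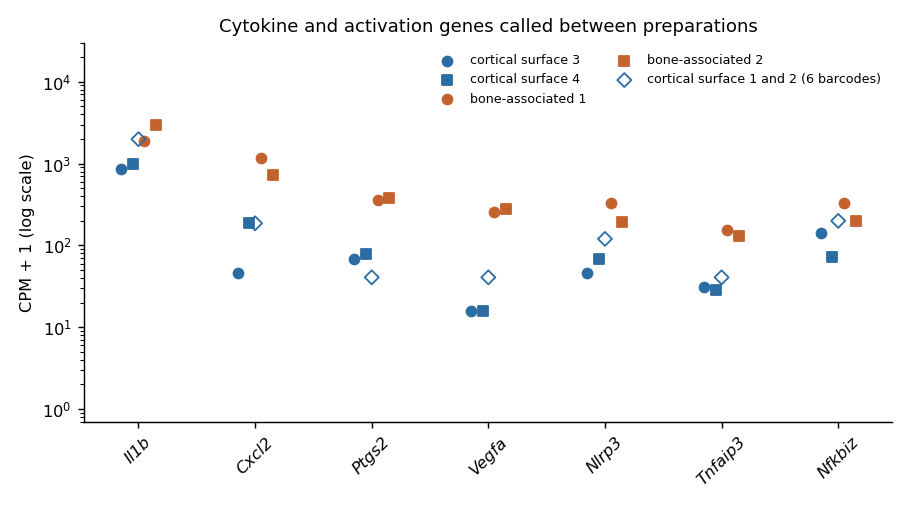
CPM plus 1 (y axis, log scale) of the 7 called cytokine and activation genes that passed the detection filter in both groups, in summed neutrophils of cortical surface libraries 3 and 4 (blue, filled), bone-associated libraries 1 and 2 (orange) and the 6 neutrophils of cortical surface libraries 1 and 2 (open diamonds). The open diamonds lie at or above the lower orange point for Il1b and Nfkbiz and at or below the higher filled blue point for Cxcl2 and Ptgs2, and the genes shown were chosen as called.

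Of 11 innate receptor genes, all of which passed the filter in both groups, 4 were called, against 6.48% of such genes. Il1r2, the decoy receptor for interleukin 1, was at 127 and 127 CPM in cortical surface libraries 3 and 4 against 850 and 1171 (log2 fold change 2.99, adjusted p = 0.000169). In cortical surface library 2 it was at 832 CPM, found in 5 of 5 neutrophils, and with that library added it did not pass (1.72, adjusted p = 0.102). Tlr2 (1.51) and Tnfrsf1b (1.66) were also higher in bone-associated neutrophils. Fpr2 was lower (-1.54). With library 2 added 1 of the 4, Tlr2, was called, and with DESeq2 Il1r2 and Fpr2. Of 19 mature neutrophil genes that passed in both groups, 4 were called, 3 higher (Il1r2, Clec4e and Il1b) and Fpr2 lower, of which Clec4e was called with library 2 added. The chemokine co-receptor Ccrl2 of that list passed only through bone-associated neutrophils and was at 22.5 and 6.33 against 417 and 237 CPM (log2 fold change 4.92). Cxcr2, a gene of the rule, had 1033 and 737 against 149 and 287 CPM, given as values only. Of 9 adhesion and homing genes that passed in both groups 1 was called, Cxcr4 (1.42), higher, against 6.48% of such genes. A single call in so short a list is no result about the list. The integrins Itgam (-0.71) and Itgb2 (-0.73) did not pass. With library 2 added Cxcr4 was not called (1.05, adjusted p = 0.165).

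Of 6 interferon-induced genes that passed in both groups 1 was called, against 6.48% of such genes, which is no result about the list. It was Isg15, at 14.97 and 44.3 against 131 and 380 CPM (log2 fold change 2.87). Rsad2 (1.87) and Ifit3, which had 0 UMIs in cortical surface and 27 in bone-associated neutrophils, passed the filter only through the latter. Cortical surface library 2 had Isg15 at 283 CPM, above bone-associated library 1, and with it added Isg15 (1.73, adjusted p = 0.149) and Rsad2 (1.67, adjusted p = 0.0716) did not pass. DESeq2 called Isg15 alone and gave Ifit3 no adjusted p. Of 11 immediate-early and stress genes Atf3 (2.73), Egr1 (1.86) and Fosb (1.46) were called higher, against 4.54% of genes that passed in both groups. A single barcode held 45.5% of the 99 bone-associated Egr1 UMIs, and DESeq2 called Atf3 but not Egr1 or Fosb. Of 8 transcription factors of granulopoiesis 1 was called higher, Cebpb (1.43), which acts in emergency granulopoiesis. Of 13 secondary granule and precursor genes 1 was called, Mmp8, lower in bone-associated neutrophils (-1.58, adjusted p = 0.0228). That share is near the 6.48% of all such genes, and 12 of the 13 had a negative fold change, with a median of -1.03. With library 2 added Egr1 (1.01), Fosb (1.09), Cebpb (1.33, adjusted p = 0.0571) and Mmp8 (-1.20) did not pass, and Atf3 did. The same 4 were not called when genes that passed in both groups were fitted alone. Without the deepest barcodes, which takes precursor UMIs mainly from bone-associated libraries, 7 of the 13 were called, all lower there. In that fit 99 of all 4212 genes tested were called lower in bone-associated neutrophils. Lists on effector and metabolic genes gave 0 calls: 10 late granule genes (median -0.43), 6 NADPH oxidase subunits (-0.25) and 11 hypoxia and glycolysis genes (0.03).

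Primary granule and cell cycle genes could mostly not be compared, since few passed the filter in both groups. Of 2 primary granule genes that did, Srgn, the proteoglycan core of granules (log2 fold change 1.89), was called. The serine protease gene Prss57 (4.23) and all 4 cycle genes, among them Rrm2 (2.07) and Tubb5 (2.12), passed only through bone-associated neutrophils, and their values are a description. Prss57 had 92 bone-associated UMIs in 10 barcodes, of which a single barcode held 41.3%, and Tubb5 had 274, of which 38.3% were in 1 barcode. Srgn was at 1265 and 954 against 4354 and 3866 CPM and was found in 93 of 95 bone-associated barcodes. In the primary granule set, the precursor set and the rest it stood at 3346, 1126 and 6407 CPM. Its call therefore does not mark primary granule cells. With the 6 primary granule barcodes left out, Srgn remained called and 290 genes were called in all, and with library 2 added Srgn was called too (1.63).

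**Figure D5:**
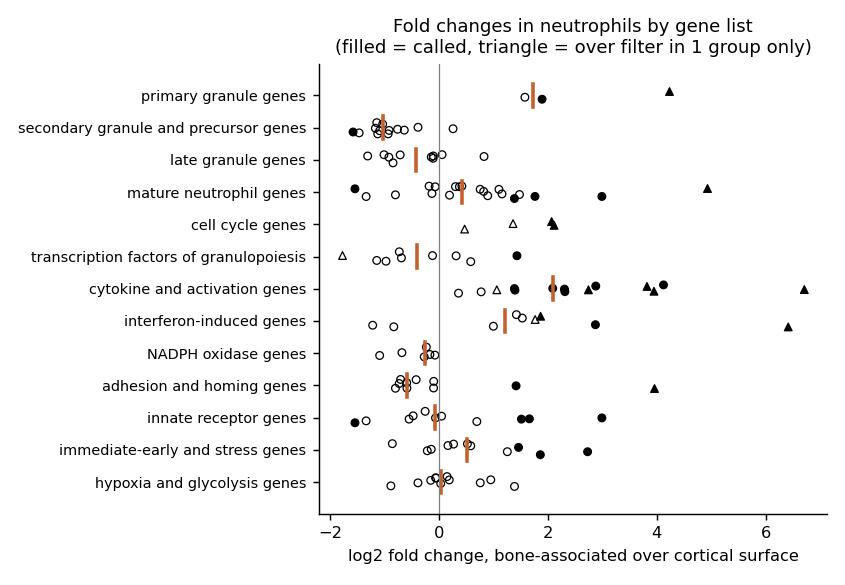
Log2 fold change of summed neutrophils, bone-associated over cortical surface (x axis), for the tested genes of 13 lists (rows, jittered); filled points passed the test and open points did not, circles are genes over the detection filter in both groups, triangles in 1 group only, and orange bars are medians of the circles. Cytokine and activation genes lie furthest right, with a median of 2.09, and secondary granule genes to the left, at -1.03.

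By the size of change the 8 leading genes higher in bone-associated neutrophils were Nr4a3, Hilpda, Fosl1, Nr4a2, Ccl4, Mgp, Cdkn1a and Trf. All 8 passed the detection filter only through bone-associated neutrophils, so their direction is no result. The orphan nuclear receptor genes Nr4a3 and Nr4a2, the lipid droplet gene Hilpda and the AP-1 gene Fosl1 had 0 UMIs in cortical surface neutrophils and 134, 51, 97 and 83 in bone-associated ones. Pooled over libraries, their bone-associated CPM was 31.2, 11.9, 22.6 and 19.3 times the level that 3 UMIs would give in cortical surface neutrophils. That floor covers counting error only and not variation between libraries, so the ratios are a description. Nr4a3 was found in 42 bone-associated barcodes, and its CPM was 192 and 107 in the 2 libraries. Cdkn1a, the cell cycle inhibitor p21, was at 0 and 4.22 CPM against 165 and 123 (log2 fold change 5.32). Trf, which encodes transferrin, was at 0 and 4.22 CPM against 21.3 and 227 (log2 fold change 5.22), but at 52.5 and 70.8 CPM in cortical surface libraries 1 and 2, above bone-associated library 1, and DESeq2 did not call it (adjusted p = 0.0993). For Mgp (matrix Gla protein) a single barcode held 86.4% of the bone-associated UMIs, at 18.3 CPM in bone-associated library 1 and 390 in library 2, and cortical surface library 2 had 903 CPM, all in 1 barcode.

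The 8 leading genes higher in cortical surface neutrophils passed the filter in both groups. Tmcc1, a membrane protein gene of the endoplasmic reticulum, was at 876 and 629 CPM against 201 and 162 (log2 fold change -2.05, adjusted p = 0.00363). The log2 fold changes of 9930111J21Rik2, B430306N03Rik, Ccdc125, D1Ertd622e, Trp53inp1, Gsdme and Mtus1 lay between -2.54 and -2.05, each with no more than 107 UMIs in cortical surface neutrophils. With library 2 added, where Ccdc125 had 0 UMIs, Ccdc125 did not pass (adjusted p = 0.0667). Gsdme encodes gasdermin E, a pore-forming protein.

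The differences between preparations were also taken within each range of precursor UMIs. The range under 5 is not a single stage of maturation, since it holds the 3 primary granule barcodes with 0 precursor UMIs. These lay in bone-associated libraries 1 and 2 and cortical surface library 4 and had 43993, 74102 and 26920 UMIs. Among neutrophils with under 5 precursor UMIs, 6, 31, 15 and 46 per library, 102 of 4188 genes were called. Of those that passed the filter in both groups 1.77% were higher in bone-associated libraries, and of 9 such cytokine and activation genes 3 were (Cxcl2, Tnfaip3 and Vegfa). The median log2 fold change of the 9 was 1.56, with 0 negative, against 2.09 in the main test. Among neutrophils with at least 5, 15, 28, 12 and 22 per library, 172 of 6305 genes were called. Of genes that passed in both groups 1.79% were higher, and of 9 such cytokine genes 2 were (Il1b and Vegfa). The median of these 9 was 1.42, with 3 negative. Of 8 primary granule genes tested in that set 5 passed only through bone-associated libraries, which hold 3 of the 3 primary granule barcodes with precursor UMIs, and their calls are not counted. Whether the 2 ranges differ was not tested.

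Markers of other cells moved with the preparation in a few genes. Apoe was called higher in bone-associated neutrophils (log2 fold change 3.25), with 57.9 and 971 CPM in the 2 libraries and 57.9% of its UMIs in 1 barcode. Cortical surface library 2 had 513 CPM of Apoe, and the call was lost with that library added (1.76, adjusted p = 0.267) and with DESeq2 (adjusted p = 0.237). Ttr, the choroid plexus transthyretin gene, was at 14.97 and 14.8 against 116 and 56.0 CPM (2.46), and Cd74, of antigen-presenting cells, was lower (-2.98) through 1 barcode with 97.1% of its cortical surface UMIs. DESeq2 called neither Ttr (adjusted p = 0.0606) nor Cd74 (adjusted p = 0.522), and Cd74 was not called with library 2 added (adjusted p = 0.133). Their part in the other differences was not tested. Ly6c2, the most abundant of 8 monocyte and dendritic cell markers, was at 1035 and 954 CPM before scaling in cortical surface libraries 3 and 4 and 1375 and 577 in bone-associated libraries 1 and 2, with overlapping groups.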

How the data were processed

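Reads were mapped by the authors to mm10 in Cell Ranger (version 3 in the submitters' processing notes, 6.1.2 in the matrix headers) and the authors deposited raw UMI counts per gene and barcode, without normalization. The counts of 31053 genes were used as deposited, and coordinates are from GENCODE (GRCm38). The members and the 23 gene lists were chosen with earlier results of these data known.

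Counts of neutrophils were summed per library. Libraries with at least 10 neutrophils entered edgeR's quasi-likelihood test (4.0.16, TMM, R 4.3.3), for genes seen in over 10% of the neutrophils of either group, without the 8 genes of the rule. p-values were Benjamini-Hochberg adjusted. On simulated data the test recovered 74 of 100 genes changed 4-fold and 98 of 100 changed 8-fold, with 3 false calls. Shares were compared by exact permutation over libraries. A gene without UMIs was given a floor of 3. Named genes are all called list genes, Ltf, Camp and Ngp, and the 8 largest changes in each direction with at least 50 UMIs and no overlap, leaving out hemoglobin, mitochondrial, immunoglobulin and predicted genes. Primary granule and cycle sums, high-depth barcodes and the single-barcode shares were added after the values were seen. Doublets were not called and free RNA was not removed. Values of 1 list gene are not reported here. The dissociation is given as papain of the ventricular zone in the labels and as collagenase and dispase in the methods.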

Additional observations from a re-analysis of the deposited data

Results flagged for a closer look

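In cortical surface library 1 the median sum of S100a8 and S100a9 was 6632 UMIs and Ltf stood at 16754 CPM, each far above the other 3 cortical surface libraries for its spread. That library holds 1 neutrophil, of 19040 UMIs, so both values describe a single cell. Chance puts about 1 in 20 such groups past the limit, and 10 values were examined.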

How the results depend on the processing

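The 401 genes called between preparations became 128 with DESeq2, 136 among genes seen in over 10% of both groups, 139 of 1464 tested after thinning to 1000 UMIs, 213 with cortical surface library 2 added, and 172 and 102 among neutrophils with at least 5 or under 5 precursor UMIs. Leaving out each library gave 0 (bone-associated library 1) to 573 (cortical surface library 4) calls. Other scalings, filters and rules gave 290 to 551. The share difference ranged from 0.996 to 1.86 points and the difference in precursor UMI carriers from -9.06 (without cortical surface library 3) to -33.0 points without any 1 library. With a library left out, the lone sample of an arm was taken to vary like the others.

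No shared number links the 4 tested libraries, so the replicate block was fitted on all 6, where cortical surface library 1 is 1 cell. The block called 15 genes and kept 0 of the 48 named calls, the 7 cytokine genes included. The deviations of same-numbered libraries correlated at 0.0721 and 0.0947 over 5315 genes. The share difference over libraries 1 and 2 under the replicate block was 2.47 points. The numbers are not known to pair animals.

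Of 48 named genes that were called, 41 could be compared with DESeq2, 33 after thinning and 45 to 48 with a library left out. Among those compared, Cd74 alone reversed when a library was left out, from -3.77 without cortical surface library 3 to 2.24 without library 4. With another test, scaling, gene minimum, mitochondrial limit or thinning 0 of those compared reversed. Calls were lost in 12 of the 41 with DESeq2 and in 9 of the 33 after thinning. Cd74 was also positive without high-depth barcodes (1.18), under 5 precursor UMIs (0.37) and in the replicate block (6.60). In the replicate block Mgp (-0.75) and Mmp8 (1.46) reversed, Mgp also with library 2 added (-0.0080), and Rsad2 with at least 5 precursor UMIs (-0.22). The cause was not tested. Alternatives on library 2, the block, depth, precursor UMIs and detection in both groups were chosen after seeing the data. With 2 libraries against 2, and 80 and 95 barcodes, a change below 4-fold would often be missed.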
